A study of Danio rerio with 24 samples.

Results

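The comparison concerned the livers of F1 male zebrafish whose parents (F0) had eaten a diet high in arachidonic acid (ARA), set against the livers of F1 males whose parents had eaten the control diet, which the labels also call the low arachidonic acid group. Both F1 groups ate the control diet themselves, so the F1 high ARA and F1 control groups differed by the parental diet. They also came from different parents. Neither the labels nor the study's methods give the number of crosses behind the F1 tanks, so family and parental diet cannot be told apart. The F0 fish received the experimental diets from 27 days post fertilization (DPF) and were mated at 97 DPF, and the F1 fish were sampled at 140 to 142 DPF. All fish were wildtype AB zebrafish, and each library was made from a pool of the livers of 6 males of 1 tank, which leaves females and single fish unmeasured. The 12 F1 libraries, 6 per group, were chosen by their labels from the 24 libraries of the series. The other 12 libraries came from the F0 males, 6 on the high ARA diet and 6 on the control diet, sampled at 154 to 156 DPF, and are used here only beside the F1 values.

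ARA is an n-6 polyunsaturated fatty acid of membrane phospholipids. When released, it is turned into prostaglandins, leukotrienes and other eicosanoids, which act on inflammation, reproduction and metabolism. The liver takes up dietary fatty acids, builds and exports lipoproteins, makes the plasma proteins, bile acids and glycogen, breaks down amino acids and drugs, and responds to interferon. A diet eaten by the parents can reach the offspring through the lipids of the egg and through marks carried by the gametes.

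Counts per gene were compared in both annotations that were used for counting, Ensembl and RefSeq. Total counts in the Ensembl table were 8636978 to 11800367 in the F1 high ARA libraries and 5144880 to 8493413 in the F1 control libraries, so every high ARA library was deeper than every control library, and depth and group cannot be told apart. The liver label was borne out by its defining markers, as the 16 hepatocyte markers together made up 169500 to 225000 CPM (counts scaled to the library total after adjustment by TMM factors, which correct for composition) in F1 high ARA livers and 209600 to 241500 CPM in F1 control livers. Summed markers of pancreas acinar cells (23 genes found) ranged from 2188 to 5177 CPM in F1 high ARA livers and from 1480 to 9919 CPM in F1 control livers. Their medians were 3532 and 6164 CPM, and the median log2 fold change of the 22 tested members was -0.64. For enterocytes (33 genes found, 2 of them at 0 in every library) the sums were 7904 to 9286 CPM and 7485 to 11050 CPM, with control libraries 7, 8 and 9 highest at 10430 to 11050 CPM, and the median log2 fold change of the 24 tested members was -1.62. Most of these sums came from rbp2a, apoa4b.1 and rbp2b, with log2 fold changes of -0.12, -0.08 and -0.38. Their medians were 2891, 2883 and 859 CPM in F1 high ARA livers and 3309, 3150 and 1123 CPM in F1 control livers. The sums therefore say little about the other enterocyte markers. Leukocyte markers summed to 342 to 562 CPM in F1 high ARA livers and 437 to 590 CPM in F1 control livers, erythrocyte markers to 180 to 495 CPM and 253 to 409 CPM, and biliary, stellate and endothelial markers to 1557 to 2639 CPM and 2102 to 2692 CPM. Testis and oocyte markers were at 11.8 to 16.1 CPM in F1 high ARA livers and at 6.5 to 14.8 CPM in 5 F1 control livers, while control library 11 held 70.8 CPM. The oocyte markers zp3b and zp3a.1 reached 22.4 and 18.3 CPM in F1 control livers, which only the sum of library 11 can hold. In F1 high ARA livers they reached 0.341 and 0.0906 CPM. Of the 25 tested biliary, stellate and endothelial markers, mrc1b and egfl7, which mark endothelial cells, passed the test in both annotations (described with their values further on). Over all genes tested, 1.51% passed. No marker of the other lists passed in both annotations. The testis and oocyte marker syce2 passed in the Ensembl counts (log2 fold change 0.77, edgeR adjusted p = 0.0239) and not in the RefSeq counts (adjusted p = 0.0609).

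Calls required an adjusted p under 0.05 and the same sign in the Ensembl and the RefSeq counts, by edgeR's quasi-likelihood test with Benjamini-Hochberg adjustment over every gene whose mean count in the 12 libraries reached 10. Of 10914 genes tested in both annotations, 165 were called (1.51%), 82 higher (0.751%) and 83 lower (0.76%) in F1 high ARA livers. The Ensembl counts alone gave 226 calls among 11690 genes and the RefSeq counts alone 209 among 11955. Of the Ensembl calls, 24 had no tested RefSeq partner and 37 had a partner that was not called. Of the 165 called genes, 15 are named in the figures of the study (figure genes) and 150 (74 higher, 76 lower) are not. Fold changes were moderate, with a median absolute log2 fold change of 0.97 over the called genes and 0.19 over all genes tested. An absolute log2 fold change above 1 was found for 77 called genes and above 2 for 13. The called genes had a median of 15.1 CPM against 9.41 CPM over all tested genes, and 23 exceeded 100 CPM.

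In 109 of the 165 called genes, the F1 groups did not overlap in any library. The 6 high ARA libraries all lay above the 6 control libraries for 54 called genes and all below them for 55, whereas among all genes tested this held for 106 (0.971%) and 139 (1.27%). A two-sided exact permutation test of the group labels gave at most p = 0.0152 for a called gene, and its smallest possible value is 0.00216. Because the called genes were selected on the same libraries, these counts are descriptive. When the counts were scaled by library totals alone, which gave a median log2 fold change of all genes of 0.13 where TMM scaling gave 0.01, the calls split into 110 higher and 48 lower. Leaving out 1 library at a time gave between 65 calls (without high ARA library 17, and likewise without control library 8) and 231 calls (without high ARA library 18). Counts also fell by more than 1.5 times without high ARA library 15 (79 calls), control library 11 (98) and control library 12 (68). With control libraries 7 to 9 left out together, 47 genes were called, 33 of them among the 165. Of the 65 called genes named below by rule, 18 were then still called, among them ccdc90b, cfap70, lxn, sh3bgrl, rsad2, isg15, cmpk2, cfd, slc22a3, crlf3, wdr47b and lepr. In all 12 fits without 1 library, 46 genes (21 higher, 25 lower) were called. The direction of the called genes turned round in none of the settings tried.

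The called genes with the smallest p-values that were neither figure genes nor known by a clone or locus name were named, 12 in each direction. Their values are given below as the lowest, median and highest library of each group, in CPM scaled with TMM factors, and log2 fold changes as F1 high ARA over F1 control. Among those that rose, ccdc90b (coiled-coil domain containing 90b, a protein of the inner mitochondrial membrane; chromosome 21, 22852284 to 22855519, GRCz10) was at 1.02, 2.29 and 2.45 CPM in F1 high ARA livers, against 0, 0.346 and 0.498 CPM in F1 control livers (log2 fold change 2.71, SE 0.39, adjusted p = 0.00464). Every high ARA library thus exceeded every control library, although the gene was close to the limit of counting. The motile cilium gene cfap70 (chromosome 3, 12036961 to 12087556) stood at 18.1, 24.4 and 32.4 CPM in F1 high ARA livers, against 4.23, 7.04 and 13.7 CPM in F1 control livers (log2 fold change 1.72, SE 0.25, adjusted p = 0.00464). A strong rise at a high level was found for slc43a3b, whose mammalian counterpart carries purine nucleobases and fatty acids across the plasma membrane, with 58.9, 90.5 and 174 CPM in F1 high ARA livers, against 20.9, 32.1 and 38.8 CPM in F1 control livers (log2 fold change 1.80, SE 0.28, adjusted p = 0.0101). The highest library of its control group was well below the lowest library of the high ARA group.

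**Figure D1:**
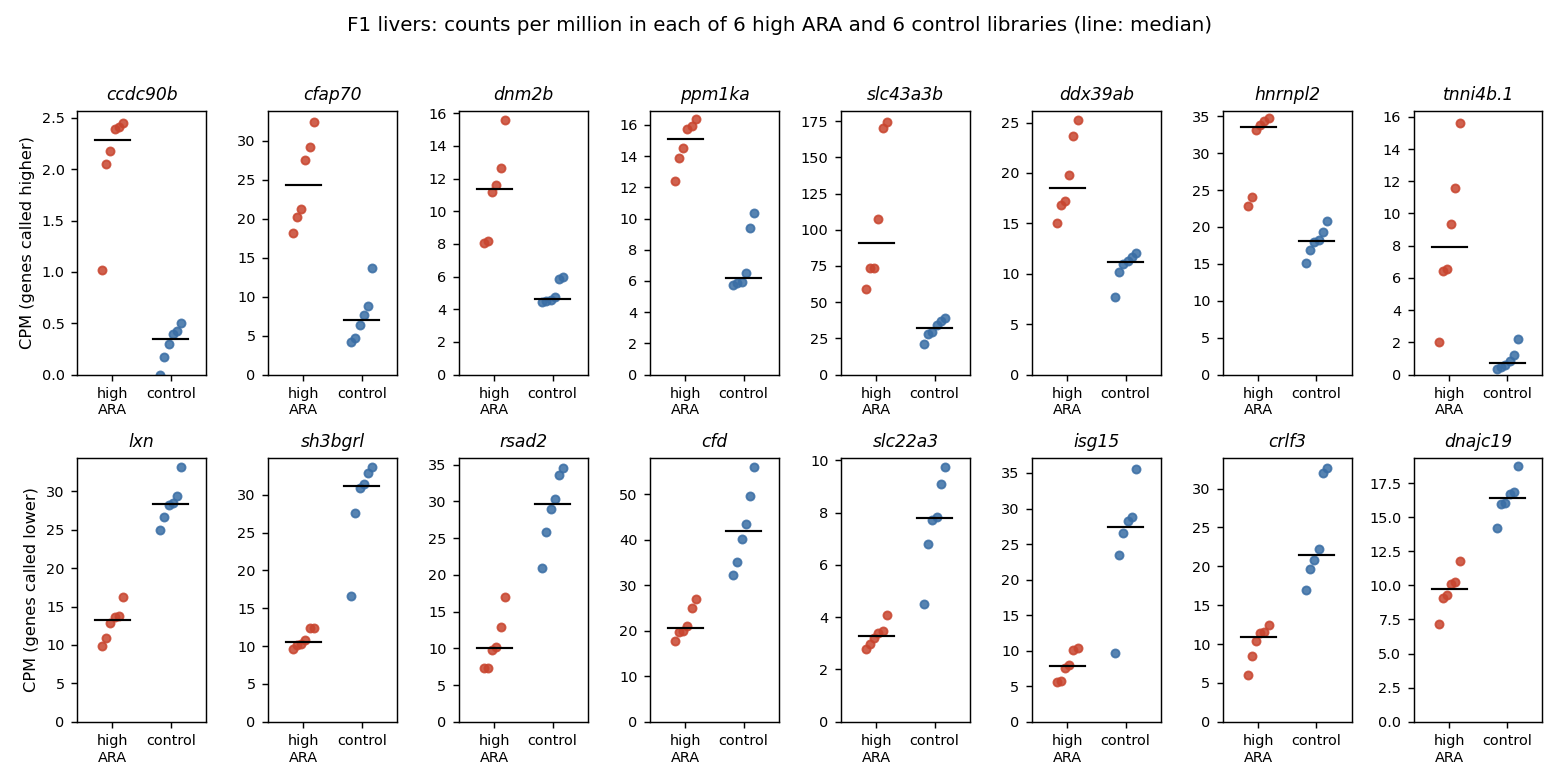
CPM (y axis, linear from 0) of 8 genes that rose (upper row) and 8 that fell (lower row) in each of the 6 F1 high ARA libraries (left, red) and 6 F1 control libraries (right, blue), with the median as a line. The groups overlap for tnni4b.1 and isg15 and are separate for the other 14 genes.

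Genes of signalling and of RNA handling were also among those that rose. The phosphatase ppm1ka, which in mammals switches on the breakdown of branched-chain amino acids in mitochondria, had 12.4, 15.1 and 16.4 CPM in F1 high ARA livers, against 5.76, 6.22 and 10.4 CPM in F1 control livers (log2 fold change 1.01, SE 0.16, adjusted p = 0.00628). For dnm2b, a dynamin GTPase that pinches endocytic vesicles off the membrane, the values were 8.07, 11.4 and 15.6 CPM in F1 high ARA livers, against 4.45, 4.65 and 5.97 CPM in F1 control livers (log2 fold change 1.16, SE 0.18, adjusted p = 0.00499, log2 fold change 0.66 in the RefSeq counts). The cAMP phosphodiesterase pde4ba had 29, 32.4 and 62.6 CPM in F1 high ARA livers, against 13.2, 18.5 and 22.8 CPM in F1 control livers (log2 fold change 1.04, SE 0.19, adjusted p = 0.0177), and its exons overlap those of linc-pde4ba on the same strand. These 3 genes showed no overlap between the groups. The mRNA export helicase ddx39ab reached a median of 18.5 CPM (15 to 25.3) in F1 high ARA livers and 11.1 CPM (7.72 to 12) in F1 control livers (log2 fold change 0.88, SE 0.15, adjusted p = 0.0103). The splicing regulator hnrnpl2 had a median of 33.5 CPM (22.8 to 34.7) in F1 high ARA livers and 18.1 CPM (15.2 to 20.9) in F1 control livers (log2 fold change 0.76, SE 0.13, adjusted p = 0.0113). Both RNA-binding genes were separate between the groups, by differences smaller than those of the membrane genes. The remaining 4 genes were frya (a large protein of cell polarity, log2 fold change 1.27), hbp1 (a transcriptional repressor, 0.89), prr13 (0.48) and tnni4b.1 (a troponin I of striated muscle, 3.11). The troponin was at 2.05, 7.92 and 15.6 CPM in F1 high ARA livers, against 0.376, 0.723 and 2.22 CPM in F1 control livers, so that its lowest high ARA library fell within the control range. Of these 12 genes, dnm2b lost its call in 6 of the 12 fits without 1 library (adjusted p = 0.0669 without control library 8) and the other 11 kept theirs in all 12 fits.

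Among the genes that fell, latexin (lxn, which in mammals inhibits metallocarboxypeptidases) had 9.9, 13.2 and 16.2 CPM in F1 high ARA livers, against 24.9, 28.3 and 33.2 CPM in F1 control livers (log2 fold change -1.15, SE 0.12, adjusted p = 0.000277). For sh3bgrl, a small protein with a thioredoxin fold, the libraries were at 9.55, 10.6 and 12.4 CPM in F1 high ARA livers, against 16.6, 31.2 and 33.6 CPM in F1 control livers (log2 fold change -1.40, SE 0.15, adjusted p = 0.000277), with exons that overlap tbx22 on the same strand. The organic cation transporter slc22a3 had 2.79, 3.29 and 4.09 CPM in F1 high ARA livers, against 4.51, 7.79 and 9.74 CPM in F1 control livers (log2 fold change -1.21, SE 0.18, adjusted p = 0.00464). In all 3 genes the highest high ARA library was below the lowest control library. The cytokine receptor-like factor crlf3 (chromosome 3, 35682532 to 35717606) was at 5.97, 10.94 and 12.5 CPM in F1 high ARA livers, against 16.9, 21.5 and 32.6 CPM in F1 control livers (log2 fold change -1.25, SE 0.20, adjusted p = 0.0068). The sweet and umami taste receptor subunit tas1r3 had 4.26, 8.03 and 10.6 CPM in F1 high ARA livers, against 13.5, 25 and 33.9 CPM in F1 control livers (log2 fold change -1.58, SE 0.27, adjusted p = 0.0134). Both were again separate between the groups. Decreases were also found for wdr47b, a WD repeat protein bound to microtubules, with a median of 9.26 CPM (6.15 to 12.8) in F1 high ARA livers and 20.1 CPM (11.3 to 27.2) in F1 control livers (log2 fold change -1.17, SE 0.20, adjusted p = 0.0134) and a slight overlap. The glutamate receptor grm6b, near the limit of counting, had a median of 1.02 CPM (0.624 to 1.21) in F1 high ARA livers and 2.57 CPM (1.5 to 3.41) in F1 control livers (log2 fold change -1.36, SE 0.24, adjusted p = 0.0146), without overlap. The other 5 genes of the 12, rsad2, isg15, cfd, dnajc19 and cxxc5b, are described with their pathways. Of the 12 genes that fell, grm6b lost its call in 4 of the 12 fits without 1 library (adjusted p = 0.0707 without control library 12) and the other 11 kept theirs.

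Genes known by clone or locus names made up 30 of the 165 calls, and the strongest of them had smaller p-values than most named genes. The transcript of zgc:174904 (chromosome 19, 5772681 to 5781451) was abundant, with 425, 515 and 696 CPM in F1 high ARA livers, against 203, 225 and 277 CPM in F1 control livers (log2 fold change 1.2, SE 0.13, adjusted p = 0.000277). That of zgc:171534 (chromosome 13, 200410 to 207027) fell, with 285, 357 and 462 CPM in F1 high ARA livers, against 494, 999.6 and 1190.0 CPM in F1 control livers (log2 fold change -1.38, SE 0.18, adjusted p = 0.00286). These are high levels, and in both genes the groups were separate. The largest decrease of all called genes in the Ensembl counts was that of si:ch211-194p6.10 (chromosome 7, 32880482 to 32904971), with 1.07, 2.33 and 3.07 CPM in F1 high ARA livers, against 9.7, 29.2 and 45 CPM in F1 control livers (log2 fold change -3.73, SE 0.34, adjusted p = 0.000277). In the RefSeq counts its log2 fold change was -2.45 (adjusted p = 0.00107), and that of sat2a.2 (-2.52) was lower. The largest increase was that of zgc:162154 (chromosome 3, 9580750 to 9602302), which had 144 counts in the 6 high ARA libraries together and 1 count in the 6 control libraries. Scaled to depth this is a ratio of 82.2, with a 95% conditional exact interval of 14.5 to 3270 that covers counting error only. Its fitted log2 fold change of 5.71 (adjusted p = 0.000277) depends on the prior count, and without high ARA library 16 or 18 the gene no longer passed the filter on low counts in both annotations. Further called clone genes with small p were ENSDARG00000070918 (a median of 144 CPM (124 to 157) in F1 high ARA livers and 72.8 CPM (55.3 to 91.4) in F1 control livers; its exons overlap another clone gene on the opposite strand) and si:dkey-23k10.5 (a median of 6.06 CPM (5.53 to 7.97) in F1 high ARA livers and 14.5 CPM (9.33 to 16.8) in F1 control livers; overlapping si:dkey-23k10.3 on the same strand).

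The other genes with the largest fold changes had few counts or varied widely between livers. The focal adhesion gene tns2b had 0.892, 2.58 and 5.68 CPM in F1 high ARA livers, against 0, 0.168 and 0.792 CPM in F1 control livers (log2 fold change 3.21, SE 0.67, adjusted p = 0.0271). For ggact.1, a gamma-glutamylamine cyclotransferase, the libraries held 0.967, 5.84 and 15 CPM in F1 high ARA livers, against 0.171, 0.744 and 0.94 CPM in F1 control livers (log2 fold change 3.49, SE 0.67, adjusted p = 0.0256). On the other side, zgc:162509 had 0.242, 0.635 and 0.909 CPM in F1 high ARA livers, against 1.32, 2.95 and 4.36 CPM in F1 control livers (log2 fold change -2.24, SE 0.35, adjusted p = 0.00648). The groups were separate in all 3 genes, with a wide range within the high ARA livers for ggact.1. Without 1 library, tns2b lost its call in 6 of 12 fits (adjusted p up to 0.0751, without control library 12) and ggact.1 in 6 of 12 fits (adjusted p up to 0.0637, without control library 12), while zgc:162509 kept its call.

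Interferon-stimulated genes encode the antiviral effectors, sensors and transcription factors that cells switch on when interferon binds its receptor. Of 31 tested members of this list, 8 fell and none rose in F1 high ARA livers, a share of 25.8% called where 1.51% of all genes were called. The median log2 fold change of the list was -0.48 (all genes 0.01), and 25 of the 31 members lay below 0. Summed over the members, the CPM were 449 to 544 in F1 high ARA livers and 560 to 701 in F1 control livers, without overlap. The list was written with earlier results of these data known, so its count is a description.

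**Figure D2:**
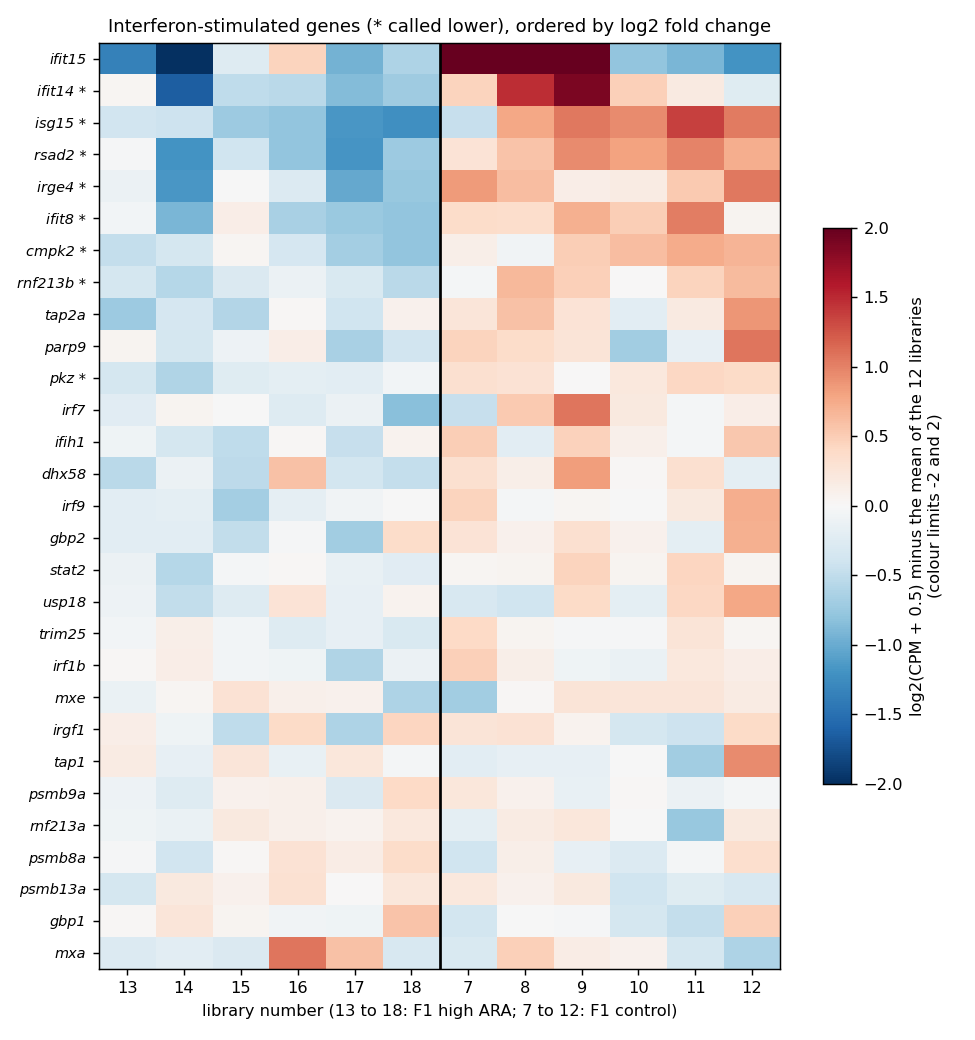
Heat map of 29 of the 31 tested interferon-stimulated genes (rows, ordered by log2 fold change; an asterisk marks the 8 called genes) in the 6 F1 high ARA libraries (left of the line) and the 6 F1 control libraries (right). Colours show log2(CPM + 0.5) minus the mean of the 12 libraries; blue cells gather on the left in the upper rows, and the lower rows show little difference.

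Among the effectors, rsad2 (viperin, an enzyme that makes a chain-terminating nucleotide against viruses; chromosome 17, 35409505 to 35413376) had 7.25, 9.98 and 16.9 CPM in F1 high ARA livers, against 21, 29.6 and 34.5 CPM in F1 control livers (log2 fold change -1.44, SE 0.20, adjusted p = 0.00353). Its neighbour cmpk2 (chromosome 17, 35414905 to 35427502), a mitochondrial nucleotide kinase, had 2.2, 2.99 and 4.29 CPM in F1 high ARA livers, against 3.93, 6.3 and 7.25 CPM in F1 control livers (log2 fold change -0.97, SE 0.20, adjusted p = 0.0259). The ubiquitin-like modifier isg15 was at 5.54, 7.8 and 10.3 CPM in F1 high ARA livers, against 9.7, 27.4 and 35.6 CPM in F1 control livers (log2 fold change -1.70, SE 0.25, adjusted p = 0.00622). In rsad2 the groups were separate, whereas in isg15 and in cmpk2 1 control library (7 and 8) lay within the high ARA range. The large ubiquitin ligase rnf213b had 4.47, 5.43 and 6.34 CPM in F1 high ARA livers, against 6.73, 9.68 and 11.1 CPM in F1 control livers (log2 fold change -0.79, SE 0.16, adjusted p = 0.0231), without overlap. The other 4 called members, named after their values were seen, were ifit14 (log2 fold change -1.83), irge4 (-1.30), ifit8 (-1.07) and the kinase pkz (-0.58). The ifit, irg and rnf213 genes stand in families of close copies, and ifit14 shares exon positions with ifit16, so that their counts may be split between copies. The member with the lowest fold change, ifit15 (log2 fold change -2.81, adjusted p = 0.141), was not called.

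The regulators of the pathway did not pass the test. Of the transcription factors, stat2, irf7 and irf9 had log2 fold changes of -0.36, -0.57 and -0.48 with adjusted p of 0.122, 0.202 and 0.114. The most abundant members were stat2, with 61, 82.6 and 91.8 CPM in F1 high ARA livers, against 92.6, 94.3 and 124 CPM in F1 control livers, and gbp1, with a median of 77.5 CPM (71.2 to 112) in F1 high ARA livers and 66.9 CPM (53.9 to 106) in F1 control livers (log2 fold change 0.23, SE 0.16, adjusted p = 0.474). In stat2 the groups were separate by less than 1 CPM. The antiviral GTPases mxa and mxe were at log2 fold changes of 0.31 (adjusted p = 0.655) and -0.11 (adjusted p = 0.809). Antigen presentation genes, which interferon also induces, had none of 28 tested members called. Their median log2 fold change of -0.07 became 0.05 with library totals alone (all genes 0.13). Beta-2 microglobulin (b2m) had a median of 354 CPM (309.5 to 384) in F1 high ARA livers and 419 CPM (386 to 447) in F1 control livers (log2 fold change -0.26, SE 0.09, adjusted p = 0.122), and the peptide-loading protein pdia3 had a median of 453 CPM (347 to 651) in F1 high ARA livers and 406 CPM (332 to 471) in F1 control livers (log2 fold change 0.21, SE 0.15, adjusted p = 0.462).

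The number of interferon-stimulated genes called lower was 3 to 7 when 1 library was left out, with 3 calls without high ARA library 17, control library 8 or control library 11. It was 3 without control libraries 7 to 9, and 4 with the enterocyte score as a covariate. The calls of rsad2 and isg15 held in all 12 fits without 1 library. Those of rnf213b were lost without control library 8 or 12 (adjusted p = 0.0608 without control library 8), those of cmpk2 in 4 of 12 fits (adjusted p up to 0.0607, without control library 12), and those of ifit14, irge4, ifit8 and pkz in 10, 6, 7 and 10 of 12. The summed leukocyte markers of the 2 groups overlapped (342 to 562 CPM in F1 high ARA livers, 437 to 590 CPM in F1 control livers), and their part in the interferon result was not tested. Much of these sums came from tmsb4x, with a median of 231 CPM in F1 high ARA livers and 296 CPM in F1 control livers. The sums are therefore a weak measure of leukocyte content. In these bulk livers, fewer cells of a type and less RNA per cell cannot be told apart.

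Most complement and coagulation proteins are made by hepatocytes and secreted into plasma. Of 57 tested genes, 2 fell and none rose (3.51% called, all genes 1.51%), and the median log2 fold change was -0.12. Complement factor D (cfd, the serine protease that cleaves factor B in the alternative pathway; chromosome 13, 13550689 to 13553342) had 17.6, 20.5 and 26.9 CPM in F1 high ARA livers, against 32.2, 41.8 and 56 CPM in F1 control livers (log2 fold change -0.98, SE 0.14, adjusted p = 0.00464). Every high ARA library was below every control library, and the call held without any 1 library. Which cells of these pooled livers carried the cfd transcript was not measured. The carrier subunit of coagulation factor XIII, f13b, had 8.83, 15 and 24.5 CPM in F1 high ARA livers, against 22.2, 34.1 and 74.8 CPM in F1 control livers (log2 fold change -1.35, SE 0.30, adjusted p = 0.0438), with overlap, and lost its call in 10 of 12 fits (adjusted p up to 0.0958, without high ARA library 15). The most abundant members were not called: fga had a median of 9604 CPM (7673 to 10440.0) in F1 high ARA livers and 9316 CPM (8564 to 10630.0) in F1 control livers (log2 fold change -0.03, SE 0.10, adjusted p = 0.897) and the central complement component c3a.1 had a median of 7525 CPM (6909 to 10410.0) in F1 high ARA livers and 7641 CPM (6969 to 10110.0) in F1 control livers (log2 fold change 0.0, SE 0.12, adjusted p = 0.992). None of 22 acute phase genes was called (median log2 fold change -0.07, and 0.04 with library totals alone, where all genes had 0.13). Among these, transferrin (tfa) was at a median of 46600.0 CPM (42530.0 to 51050.0) in F1 high ARA livers and 44960.0 CPM (39650.0 to 53220.0) in F1 control livers (log2 fold change 0.02, SE 0.09, adjusted p = 0.916), and the haem-binding hpxa at a median of 6436 CPM (4945 to 7615) in F1 high ARA livers and 6873 CPM (5385 to 15770.0) in F1 control livers (log2 fold change -0.32, SE 0.23, adjusted p = 0.466).

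In the lists of protein folding and secretion most members had a log2 fold change above 0, and few passed the test. Endoplasmic reticulum chaperones and quality control genes had a median log2 fold change of 0.34 with 36 of 48 above 0 and none called. Genes of entry into the endoplasmic reticulum and of vesicle coats had a median of 0.26 with 53 of 60 above 0 and 1 called (1.67%, all genes 1.51%). Aminoacyl-tRNA synthetases, which load amino acids onto tRNA, had a median of 0.34 with 19 of 22 above 0 and none called. As an alternative, DESeq2 called 7, 8 and 5 members of the 3 lists higher and none lower, where it called 2.13% of all genes higher. The edgeR fit of all 24 libraries called 4, 7 and 2 members higher and none lower, where it called 1.12% of all genes higher. Cytosolic ribosomal proteins had a median of -0.29 with 74 of 76 below 0 and none called. DESeq2 called 20 of them lower (2.28% of all genes), the edgeR fit of all 24 libraries 15 (1.29% of all genes) and the fit without high ARA library 13 called 2.

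**Figure D3:**
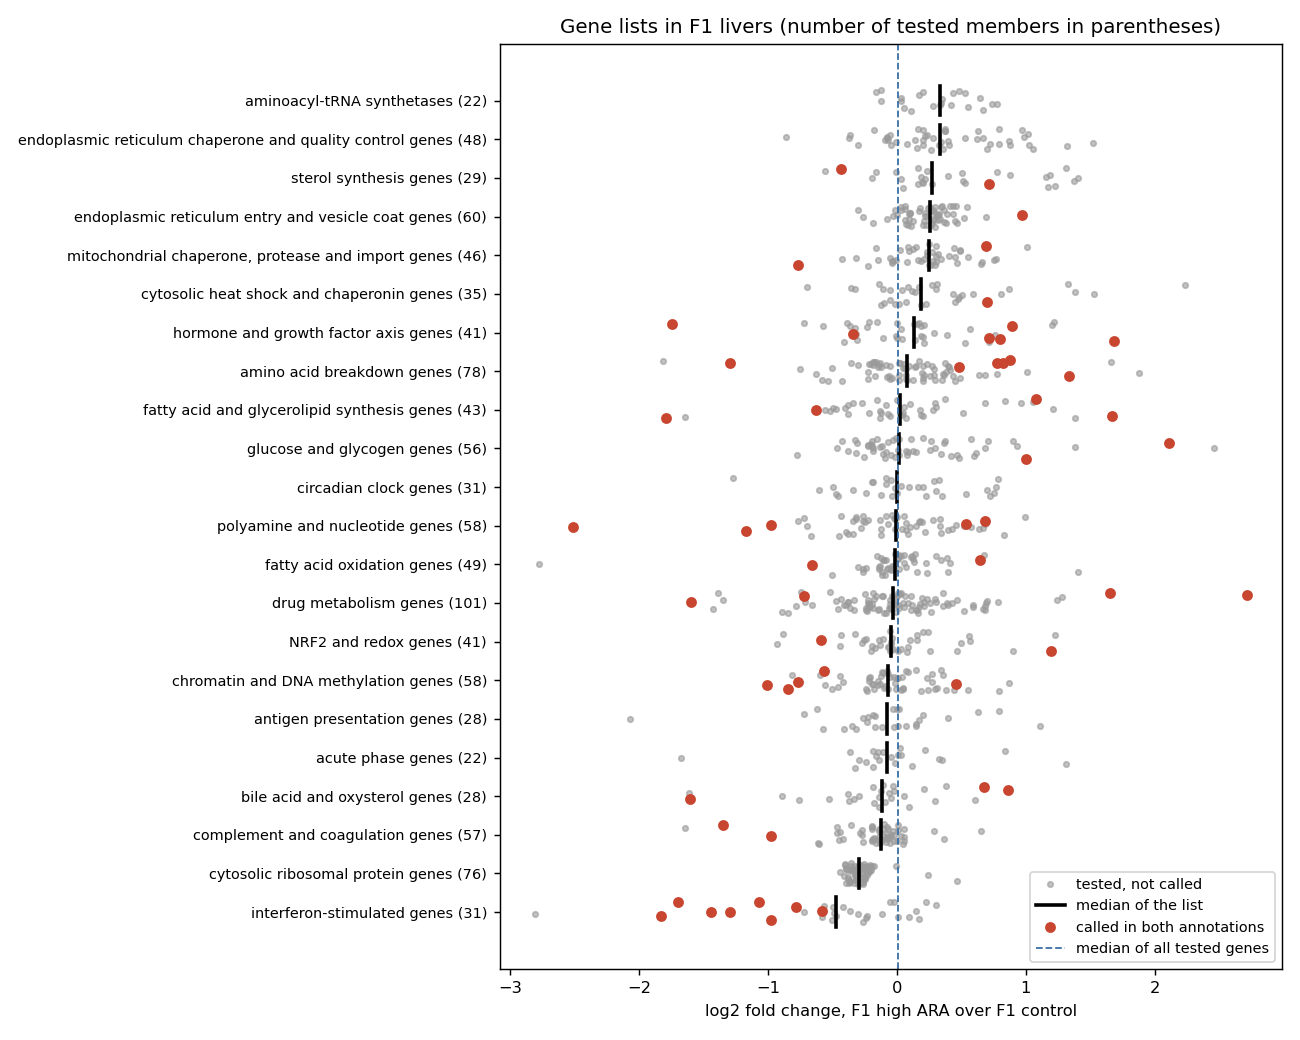
Log2 fold changes (x axis, F1 high ARA over F1 control) of the tested members of 22 gene lists, ordered by their median (black bar). Red points are the members called in both annotations, grey points the others, and the dashed line is the median of all tested genes; the 8 red points of the interferon-stimulated genes lie on the left, while ribosomal protein genes form a narrow group below 0 with no called member.

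The called gene of the secretory lists was golt1bb, a vesicle transport protein of the Golgi, with 6.48, 9.24 and 12 CPM in F1 high ARA livers, against 2.63, 4.74 and 6.18 CPM in F1 control livers (log2 fold change 0.97, SE 0.19, adjusted p = 0.0238). Its groups were separate, and the call was lost in 4 of 12 fits (adjusted p up to 0.063, without control library 12). The most abundant members showed smaller differences, with the translocon subunit sec61a1a at a median of 492 CPM (378 to 585) in F1 high ARA livers and 447 CPM (378 to 526) in F1 control livers (log2 fold change 0.10, SE 0.12, adjusted p = 0.669) and the coat protein sec23b at a median of 364 CPM (268 to 535) in F1 high ARA livers and 314 CPM (264 to 348) in F1 control livers (log2 fold change 0.37, SE 0.16, adjusted p = 0.223). The protein disulfide isomerase p4hb had a median of 1063 CPM (858 to 1404) in F1 high ARA livers and 1144 CPM (1069 to 1268) in F1 control livers (log2 fold change -0.07, SE 0.11, adjusted p = 0.766), the synthetases aars1 and kars1 had log2 fold changes of 0.03 (adjusted p = 0.909) and 0.05 (adjusted p = 0.79), and the ribosomal genes rps2 and rpl3 had -0.38 (adjusted p = 0.0684) and -0.22 (adjusted p = 0.271).

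Of 46 genes of mitochondrial chaperones, proteases and import, 1 rose and 1 fell (4.35% called, all genes 1.51%), around a median log2 fold change of 0.25 that became 0.04 with 1 surrogate variable. The mitochondrial HSP70 hspa9 (mortalin; chromosome 14, 11836799 to 11862883), which pulls precursor proteins through the inner membrane, had 272, 324 and 466 CPM in F1 high ARA livers, against 162, 211 and 235 CPM in F1 control livers (log2 fold change 0.69, SE 0.14, adjusted p = 0.0214). Its partner at the import motor, dnajc19 (chromosome 22, 37599176 to 37606102), moved the other way, with 7.13, 9.71 and 11.8 CPM in F1 high ARA livers, against 14.2, 16.4 and 18.8 CPM in F1 control livers (log2 fold change -0.77, SE 0.12, adjusted p = 0.00706). Neither gene overlapped between the groups, and both kept their calls without any 1 library. With 1 surrogate variable the call of hspa9 was lost, and without control libraries 7 to 9 both calls were lost. The folding chamber subunit hspd1 was at a median of 116 CPM (75.5 to 221) in F1 high ARA livers and 57.1 CPM (54.8 to 115) in F1 control livers (log2 fold change 1.01, SE 0.32, adjusted p = 0.113), and the import receptor tomm20b at a median of 108 CPM (68.7 to 121) in F1 high ARA livers and 96 CPM (75.1 to 128) in F1 control livers (log2 fold change -0.04, SE 0.17, adjusted p = 0.923). Of 35 cytosolic heat shock and chaperonin genes, 1 rose (2.86% called, all genes 1.51%), around a median of 0.19. This was ptges3a, the p23 cochaperone of HSP90, which in mammals also converts prostaglandin H2 made from ARA to prostaglandin E2, with 36.4, 54.2 and 64.6 CPM in F1 high ARA livers, against 23.1, 31.3 and 39.7 CPM in F1 control livers (log2 fold change 0.70, SE 0.15, adjusted p = 0.0294). Its groups overlapped, and the call was lost in 8 of 12 fits (adjusted p up to 0.0655, without control library 7). The call was also lost with 1 surrogate variable and with the pancreas acinar score as a covariate. With 1 surrogate variable the median of this list became 0.0008. The main cytosolic chaperones hsp90ab1 and hspa8 had log2 fold changes of -0.10 (adjusted p = 0.611) and 0.23 (adjusted p = 0.271).

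Lipid genes beyond those of the study's figures changed at few points. In the list of fatty acid and glycerolipid synthesis, 2 of 43 rose and 2 fell (9.3% called, all genes 1.51%), all of them figure genes, and the median log2 fold change was 0.02. The delta-6 desaturase fads2, which makes long-chain polyunsaturated fatty acids such as ARA from plant precursors, was abundant and not called, with 2500.0, 3771 and 4653 CPM in F1 high ARA livers, against 2962, 3905 and 4834 CPM in F1 control livers (log2 fold change -0.05, SE 0.16, adjusted p = 0.882). Glycerol-3-phosphate dehydrogenase gpd1b had a median of 763 CPM (605 to 831) in F1 high ARA livers and 973 CPM (875 to 1227) in F1 control livers (log2 fold change -0.47, SE 0.11, adjusted p = 0.0474 in the Ensembl counts) and was not called in both annotations. In fatty acid oxidation, 1 of 49 rose (a figure gene) and 1 fell (4.08% called, all genes 1.51%), around a median of -0.01 that became 0.11 with library totals alone (all genes 0.13). The gene that fell was slc25a17 (chromosome 3, 24551287 to 24562684), the carrier that brings coenzyme A and other cofactors into peroxisomes, with 14.6, 19.2 and 25.5 CPM in F1 high ARA livers, against 26.6, 31.4 and 36.5 CPM in F1 control livers (log2 fold change -0.66, SE 0.14, adjusted p = 0.0266). Its groups were separate, and the call was lost in 8 of 12 fits (adjusted p up to 0.0704, without control library 12). The liver fatty acid binding protein fabp10a had a median of 15820.0 CPM (10880.0 to 19340.0) in F1 high ARA livers and 18550.0 CPM (17110.0 to 22830.0) in F1 control livers (log2 fold change -0.30, SE 0.13, adjusted p = 0.212), and the peroxisomal thiolase and sterol carrier scp2a had a median of 1559 CPM (1263 to 1863) in F1 high ARA livers and 1698 CPM (1493 to 1837) in F1 control livers (log2 fold change -0.13, SE 0.10, adjusted p = 0.534).

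For sterols, 1 of 29 genes rose and 1 fell (6.9% called, all genes 1.51%), with 24 members above 0 (all genes 5581 of 10914) and a median log2 fold change of 0.27. The sterol demethylase component nsdhl had 25.5, 30 and 41.7 CPM in F1 high ARA livers, against 15.7, 19 and 25.4 CPM in F1 control livers (log2 fold change 0.71, SE 0.17, adjusted p = 0.041), and npc2.1, which binds cholesterol in lysosomes, had 83.6, 91.4 and 95.2 CPM in F1 high ARA livers, against 105, 119.9 and 141 CPM in F1 control livers (log2 fold change -0.43, SE 0.10, adjusted p = 0.0354). Both were separate between the groups by small margins. Their calls were lost in 9 of 12 fits (adjusted p up to 0.0925, without control library 12) for nsdhl and 8 of 12 fits (adjusted p up to 0.0811, without control library 11) for npc2.1, and npc2.1 shares exon positions with npc2.2. The LDL receptor ldlra ranged widely within both groups, with 58.9, 222 and 585 CPM in F1 high ARA livers, against 65, 198 and 272 CPM in F1 control livers (log2 fold change 0.51, SE 0.59, adjusted p = 0.672), and the lysosomal cholesterol exporter npc1 had a log2 fold change of -0.19 (adjusted p = 0.307).

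Of 28 genes of bile acids and oxysterols, 2 rose and 1 fell (10.7% called, all genes 1.51%), around a median of -0.11 that became 0.01 with library totals alone (all genes 0.13). Ferredoxin fdx1, the electron donor of mitochondrial cytochromes P450 such as the sterol 27-hydroxylase, had 155, 206 and 272 CPM in F1 high ARA livers, against 81.3, 118 and 136 CPM in F1 control livers (log2 fold change 0.86, SE 0.16, adjusted p = 0.0183). Its groups were separate, its call held without any 1 library, and its exons overlap arhgap20 on the opposite strand. The call of fdx1 was lost with 1 surrogate variable and without control libraries 7 to 9. The oxysterol hydroxylase cyp39a1 had 7.19, 13.6 and 25.7 CPM in F1 high ARA livers, against 25.6, 48.1 and 55.1 CPM in F1 control livers (log2 fold change -1.60, SE 0.31, adjusted p = 0.0248), with a slight overlap, and lost its call without high ARA library 17 or control library 12 (adjusted p = 0.0618 without high ARA library 17). The transporter slc10a4, of the family of the bile acid carriers, had a median of 19.6 CPM (17.9 to 22.8) in F1 high ARA livers and 12 CPM (8.59 to 16.9) in F1 control livers (log2 fold change 0.68, SE 0.14, adjusted p = 0.0256) and lost its call in 10 of 12 fits (adjusted p up to 0.102, without control library 8). The most abundant members were the organic anion transporter slco1d1 (a median of 1318 CPM (1063 to 1502) in F1 high ARA livers and 1495 CPM (1287 to 1541) in F1 control livers) and the acyl-CoA synthetase slc27a2a (a median of 626 CPM (344 to 838) in F1 high ARA livers and 802 CPM (639 to 891) in F1 control livers), neither called, with adjusted p of 0.455 and 0.359.

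Of 101 drug metabolism genes, 2 rose and 2 fell (3.96% called, all genes 1.51%), and the median log2 fold change was -0.03 (0.09 with library totals alone, where all genes had 0.13). The multidrug and toxin extrusion transporter slc47a2.1 had 15.1, 24.6 and 54.9 CPM in F1 high ARA livers, against 0.213, 4.74 and 8.91 CPM in F1 control livers (log2 fold change 2.72, SE 0.57, adjusted p = 0.0395). The outer mitochondrial membrane cytochrome b5, cyb5b, had 11.9, 28.5 and 42 CPM in F1 high ARA livers, against 5.63, 9.14 and 12 CPM in F1 control livers (log2 fold change 1.65, SE 0.31, adjusted p = 0.0232). The groups were separate for slc47a2.1 and overlapped at 1 library on each side for cyb5b. Among those that fell, the efflux pump abcc6b.2 had 0.599, 1.34 and 2.72 CPM in F1 high ARA livers, against 2.82, 4.32 and 6.52 CPM in F1 control livers (log2 fold change -1.60, SE 0.32, adjusted p = 0.0236), with exons shared with abcc6b.1. The flavin monooxygenase fmo5 had a median of 32.3 CPM (27.4 to 40.1) in F1 high ARA livers and 56 CPM (36.7 to 67) in F1 control livers (log2 fold change -0.72, SE 0.14, adjusted p = 0.0239). Their calls were lost in 11 of 12 fits (adjusted p up to 0.0925, without control library 12) for slc47a2.1, 2 of 12 fits (adjusted p up to 0.0544, without control library 12) for cyb5b, 3 of 12 fits (adjusted p up to 0.0657, without control library 12) for abcc6b.2 and 6 of 12 fits (adjusted p up to 0.0732, without control library 8) for fmo5. The glutathione transferase gstr and the P450 reductase porb, both abundant, had log2 fold changes of 0.01 (adjusted p = 0.956) and 0.36 (adjusted p = 0.115).

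Among 41 NRF2 and redox genes, 1 rose and 1 fell (4.88% called, all genes 1.51%). The lactonase pgls, of the oxidative branch of the pentose phosphate pathway, rose, with 4.89, 6.28 and 9.87 CPM in F1 high ARA livers, against 1.88, 3.1 and 4.1 CPM in F1 control livers (log2 fold change 1.19, SE 0.25, adjusted p = 0.0256). The ribose-5-phosphate isomerase rpia, of the other branch of that pathway, fell, with 20.5, 24.2 and 32.8 CPM in F1 high ARA livers, against 30.5, 37.6 and 43.6 CPM in F1 control livers (log2 fold change -0.59, SE 0.13, adjusted p = 0.0347). The groups were separate for pgls and overlapped for rpia, and the calls were lost in 3 of 12 fits (adjusted p up to 0.058, without control library 12) and 7 of 12 fits (adjusted p up to 0.0794, without control library 8). The peroxidase gpx4a and catalase (cat) had log2 fold changes of -0.25 (adjusted p = 0.385) and -0.13 (adjusted p = 0.448).

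Of 56 genes of glucose and glycogen metabolism, 2 rose and none fell (3.57% called, all genes 1.51%). Both encode subunits of phosphorylase kinase, which activates the enzyme that breaks glycogen down. Whether the 2 products meet in the same enzyme was not measured. A catalytic subunit gene, phkg1a, had 2.81, 6.09 and 12.8 CPM in F1 high ARA livers, against 0.853, 1.25 and 3.23 CPM in F1 control livers (log2 fold change 2.11, SE 0.42, adjusted p = 0.0256). The gene of the regulatory subunit of liver, phka2, had 13, 24.5 and 29.9 CPM in F1 high ARA livers, against 7.25, 11 and 17.3 CPM in F1 control livers (log2 fold change 1.0, SE 0.23, adjusted p = 0.0407). Both genes overlapped between the groups. The calls were lost in 6 of 12 fits (adjusted p up to 0.0637, without control library 12) for phkg1a and 9 of 12 fits (adjusted p up to 0.102, without control library 12) for phka2. The glycolytic gene gapdh was at a log2 fold change of -0.32 (adjusted p = 0.288), and the list's median was 0.02.

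Of 78 genes of amino acid breakdown, 5 rose and 1 fell (7.69% called, all genes 1.51%), with a median of 0.08, and 4 of the 6 were figure genes. The other members were gldc and oat. Glycine decarboxylase (gldc), part of the enzyme system that splits glycine into carbon dioxide, ammonia and a folate-bound carbon, had 99.7, 139 and 227 CPM in F1 high ARA livers, against 26.1, 60 and 88.2 CPM in F1 control livers (log2 fold change 1.34, SE 0.28, adjusted p = 0.0339). Ornithine aminotransferase (oat) had 66.7, 90.9 and 139 CPM in F1 high ARA livers, against 36.8, 50.8 and 75.3 CPM in F1 control livers (log2 fold change 0.83, SE 0.20, adjusted p = 0.0451). The groups were separate for gldc and overlapped for oat. Without 1 library, gldc lost its call in 10 of 12 fits (adjusted p up to 0.0893, without control library 8) and oat in 9 of 12 fits (adjusted p up to 0.0967, without control library 11), and the number of members called higher ranged from 0 to 5. The abundant enzymes hpda (tyrosine breakdown) and bhmt (remethylation of homocysteine) had log2 fold changes of -0.22 (adjusted p = 0.335) and -0.13 (adjusted p = 0.663).

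Of 58 genes of polyamines and nucleotides, 2 rose and 3 fell (8.62% called, all genes 1.51%), around a median of -0.01 (0.13 with library totals alone, where all genes had 0.13). The multi-enzyme protein cad, which starts pyrimidine synthesis, had 18.6, 34 and 53.1 CPM in F1 high ARA livers, against 44.6, 80.2 and 98.5 CPM in F1 control livers (log2 fold change -1.17, SE 0.23, adjusted p = 0.0233). The acetyltransferase sat2a.2, of the family that acetylates polyamines, had 0.981, 13.8 and 21.9 CPM in F1 high ARA livers, against 23.7, 71.9 and 138 CPM in F1 control livers (log2 fold change -2.52, SE 0.55, adjusted p = 0.0438). Its groups were separate with a wide range within the high ARA livers, whereas those of cad overlapped. Adenosine kinase adkb, which returns adenosine to AMP, had a median of 42.1 CPM (29.6 to 52.5) in F1 high ARA livers and 26.9 CPM (19.1 to 29.8) in F1 control livers (log2 fold change 0.68, SE 0.15, adjusted p = 0.028). The purine salvage enzyme aprt, named after its values were seen, also rose (log2 fold change 0.54), and cmpk2 is given with the interferon genes. The calls were lost in 3 of 12 fits (adjusted p up to 0.0586, without high ARA library 17) for cad, 9 of 12 fits (adjusted p up to 0.0909, without control library 12) for sat2a.2, 6 of 12 fits (adjusted p up to 0.0644, without control library 12) for adkb and 11 of 12 fits (adjusted p up to 0.103, without high ARA library 17) for aprt. The abundant pnp4b and uox had log2 fold changes of -0.09 (adjusted p = 0.784) and -0.02 (adjusted p = 0.964).

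Of 41 genes of hormone and growth factor axes, 4 rose and 2 fell (14.6% called, all genes 1.51%), around a median of 0.13. With 1 surrogate variable in the fit, none rose and 1 fell, around a median of -0.12. The oestrogen receptor esr1 (chromosome 20, 26460666 to 26484285), which in fish liver drives yolk protein synthesis, had 3.3, 5.98 and 11.2 CPM in F1 high ARA livers, against 1.04, 1.79 and 3.62 CPM in F1 control livers (log2 fold change 1.69, SE 0.38, adjusted p = 0.0369). The leptin receptor lepr had 9.18, 12.7 and 15.3 CPM in F1 high ARA livers, against 4.69, 6.32 and 10.6 CPM in F1 control livers (log2 fold change 0.90, SE 0.18, adjusted p = 0.0244). Both receptors were higher with a slight overlap of the groups. On the side of insulin and growth factors, grb14, an adaptor that restrains the insulin receptor, had 0.362, 0.861 and 1.45 CPM in F1 high ARA livers, against 1.71, 3.18 and 3.95 CPM in F1 control livers (log2 fold change -1.74, SE 0.32, adjusted p = 0.0168). The abundant binding protein igfbp2a, which holds insulin-like growth factors in plasma, had 471, 498 and 544 CPM in F1 high ARA livers, against 604, 624 and 673 CPM in F1 control livers (log2 fold change -0.34, SE 0.08, adjusted p = 0.04). In both, every high ARA library was below every control library. The kinase sgk3 (log2 fold change 0.72) and the progestin and adipoQ receptor family member paqr3b (0.80), named after their values were seen, also rose. The call of grb14 held without any 1 library. The others were lost in 8 of 12 fits (adjusted p up to 0.0848, without control library 12) for esr1, 4 of 12 fits (adjusted p up to 0.0576, without control library 12) for lepr, 11 of 12 fits (adjusted p up to 0.0872, without control library 11) for igfbp2a, 8 of 12 fits (adjusted p up to 0.0849, without control library 11) for sgk3 and 11 of 12 fits (adjusted p up to 0.0957, without control library 12) for paqr3b. The growth factor igf2a and the deiodinase dio2 had log2 fold changes of -0.57 (adjusted p = 0.161) and -0.23 (adjusted p = 0.703).

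Chromatin and DNA methylation genes are of interest in a comparison between offspring of differently fed parents. Of 58 tested, 1 rose and 4 fell (8.62% called, all genes 1.51%), and the median log2 fold change was -0.07 (0.05 with library totals alone, where all genes had 0.13). Cxxc5b, a zinc finger protein that binds unmethylated CpG, had 5.17, 7.14 and 12.1 CPM in F1 high ARA livers, against 12, 15.5 and 17.5 CPM in F1 control livers (log2 fold change -1.0, SE 0.18, adjusted p = 0.0154). The histone H3 lysine 27 methyltransferase ezh1 (chromosome 3, 36717712 to 36750793) had 4.99, 6.86 and 9.32 CPM in F1 high ARA livers, against 10.3, 12.2 and 16 CPM in F1 control livers (log2 fold change -0.85, SE 0.16, adjusted p = 0.019), and the transcription factor yy1b had a median of 12.8 CPM (9.81 to 14.9) in F1 high ARA livers and 18.1 CPM (15.6 to 22.8) in F1 control livers (log2 fold change -0.56, SE 0.13, adjusted p = 0.04). The groups were separate for ezh1 and yy1b, and overlapped at 1 library for cxxc5b. The elongation factor subunit ctr9 rose, with a median of 26.1 CPM (23.7 to 27.6) in F1 high ARA livers and 18.6 CPM (16.4 to 21.4) in F1 control livers (log2 fold change 0.46, SE 0.10, adjusted p = 0.0266), without overlap, and the nucleosome remodeller smarca1, named after its values were seen, fell (log2 fold change -0.77). The call of cxxc5b held without any 1 library, and was lost in the fit of all 24 libraries and without control libraries 7 to 9. Those of the others were lost in 2 of 12 fits (adjusted p up to 0.0576, without control library 12) for ezh1, 8 of 12 fits (adjusted p up to 0.0872, without control library 11) for yy1b, 7 of 12 fits (adjusted p up to 0.0654, without control library 12) for ctr9 and 10 of 12 fits (adjusted p up to 0.101, without high ARA library 17) for smarca1. The most abundant members, smarcd1 and hmgb3b, were separate between the groups but not called, with log2 fold changes of -0.42 (adjusted p = 0.0576) and 0.38 (adjusted p = 0.0761). None of 31 circadian clock genes was called (median log2 fold change 0.003), and cry3a and bhlhe40 had -0.09 (adjusted p = 0.687) and -0.19 (adjusted p = 0.648).

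Of 25 tested biliary, stellate and endothelial markers, 1 rose and 1 fell, where 1.51% of all genes were called. Both are endothelial markers. The scavenger receptor mrc1b had a median of 5.58 CPM (4.47 to 8.88) in F1 high ARA livers and 3.18 CPM (2.35 to 4.48) in F1 control livers (log2 fold change 0.91, SE 0.21, adjusted p = 0.0425), and the secreted vessel factor egfl7 had a median of 2 CPM (1.16 to 2.39) in F1 high ARA livers and 3.39 CPM (2.82 to 4.05) in F1 control livers (log2 fold change -0.86, SE 0.21, adjusted p = 0.0466). Their calls were lost in 8 of 12 fits (adjusted p up to 0.09, without control library 12) and 10 of 12 fits (adjusted p up to 0.1, without control library 12).

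By position in GRCz10, called genes were most frequent on chromosome 3, where 29 of 609 tested genes were called (4.76%, 18 higher and 11 lower), against 1.51% over all chromosomes. The next shares were 2.9% on chromosome 22 and 2.81% on chromosome 14, and none of 353 tested genes on chromosome 4 was called. The 29 genes were spread over the whole of chromosome 3, with 3.77% to 7.41% called in every window of 10 Mb. They included cfap70, ddx39ab, crlf3, ezh1, slc25a17, abcc6b.2 and pgls described above. Over the genome, 66 of 2469 tested genes within 1 Mb of another called gene were called (2.67%), and 99 of the 8445 others (1.17%). Without chromosome 3 the shares were 2.47% and 1.04%. These shares are descriptions, as neighbouring genes are not independent. The F1 groups also differed in their parents, whose part in these shares was not tested.

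**Figure D4:**
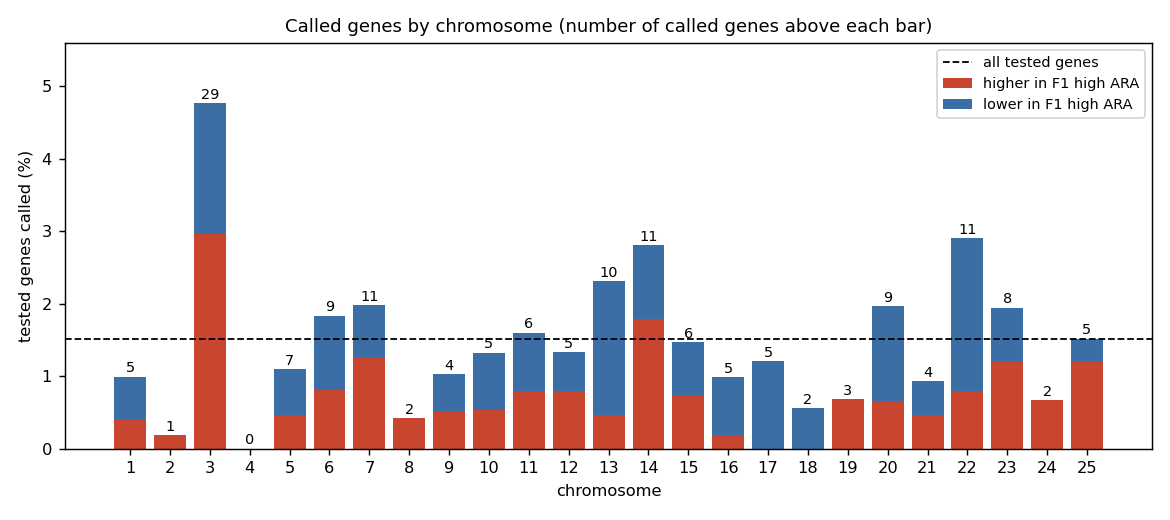
Percent of tested genes called on each of the 25 chromosomes (y axis), split into genes higher (red) and lower (blue) in F1 high ARA livers, with the number of called genes above each bar and the share of all tested genes as a dashed line. Chromosome 3 has the tallest bar with 29 called genes, and chromosome 4 has none.

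The same contrast in the F0 livers, of fish that had eaten the diets themselves, gave no call in both annotations (0 of 11439 genes, 0%) by edgeR, and 906 of 12194 Ensembl genes had an unadjusted p under 0.05. No other tool was run here on the F0 counts. The study, which used DESeq2, did report a few genes that differed between its F0 diet groups in both annotations. In F1, DESeq2 without a prior called 481 genes where edgeR called 165, so the number of F0 calls may depend on the tool. Of the 165 F1 genes, 159 had an F0 value, and 98 of these (61.6%) had the same sign in both generations, where 53.0% of all tested genes did. The 79 genes higher in F1 had a median log2 fold change of 0.88 in F1 and 0.03 in F0, and 42 of them were above 0 in F0. The 80 genes lower in F1 had a median of -0.99 in F1 and -0.10 in F0, and 56 of them were below 0 in F0. An unadjusted p under 0.05 in F0 was found for 16 of the 159, 11 of them with the sign of F1.

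**Figure D5:**
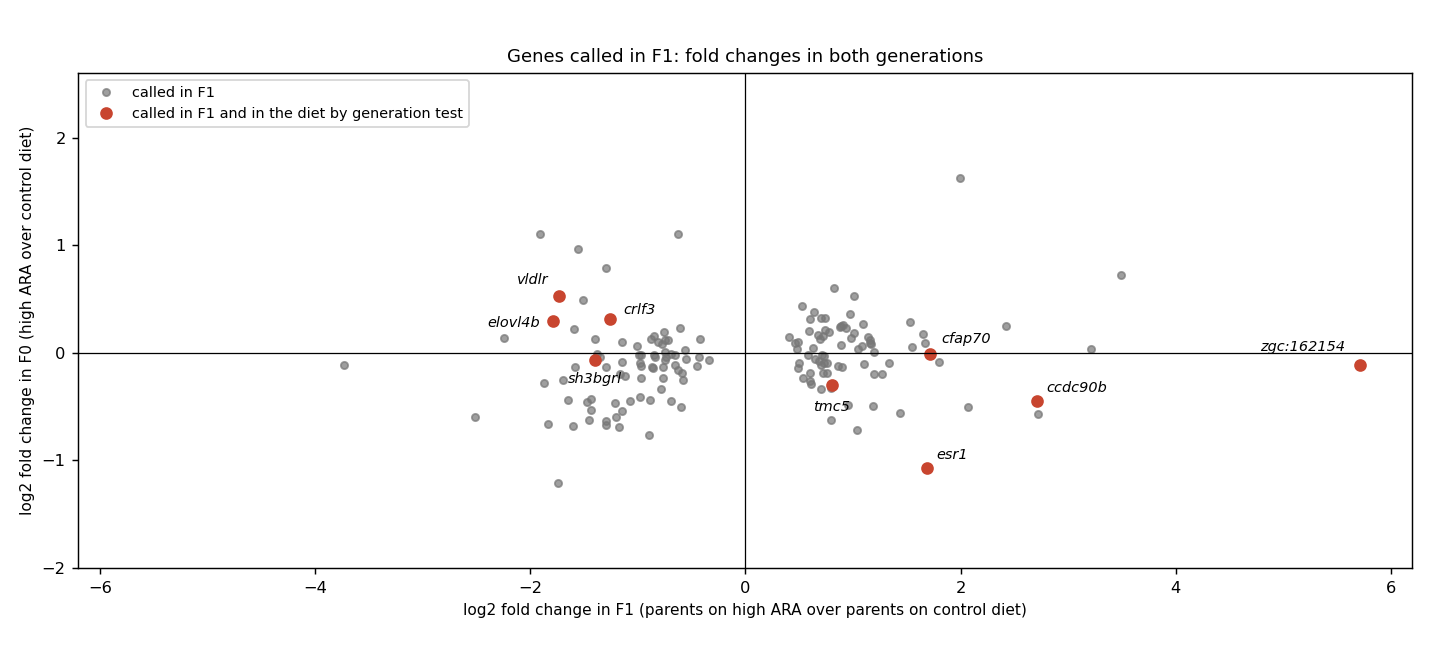
Log2 fold change of each of 159 called genes in F1 (x axis, parents on high ARA over parents on the control diet) and in F0 (y axis, high ARA over control diet), on axes of equal scale. Points lie along the horizontal line at 0, and the 9 red points with names are the genes whose difference between the generations passed its own test.

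Side by side, the interferon genes had log2 fold changes of -1.44 in F1 and -0.43 in F0 for rsad2, -1.70 and -0.25 for isg15, -0.79 and -0.33 for rnf213b, and -0.97 and -0.13 for cmpk2. Among the other genes below 0 in both generations were grb14 (F1 -1.74, F0 -1.21), slc22a3 (F1 -1.21, F0 -0.60) and cfd (F1 -0.98, F0 -0.41), all with an unadjusted F0 p under 0.05, and ppm1ka was above 0 in both (F1 1.01, F0 0.53). The difference between the generations itself was tested by the interaction of diet and generation over all 24 libraries, which called 12 of 11203 genes (0.107%), 9 of them among the F1 calls. Beyond the figure genes these were ccdc90b, cfap70, zgc:162154, tmc5 (a transmembrane channel-like protein), esr1, crlf3 and sh3bgrl. The oestrogen receptor esr1 had opposite signs in the generations, with 1.69 in F1 and -1.07 in F0 (interaction 2.76, adjusted p = 0.0418). For cfap70 the F1 value was 1.72 and the F0 value -0.01 (interaction 1.73, adjusted p = 0.0196), and for crlf3 they were -1.25 and 0.31 (interaction -1.56, adjusted p = 0.0475). The F1 and F0 livers differed in age at sampling as well as in diet, and the part of age in these differences was not tested.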

How the data were processed

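Pooled male livers were sequenced from a stranded library kit. According to the submitters' processing notes and the study's methods, the authors checked reads with FastQC 0.11.5, aligned them with HISAT2 to GRCz10 and counted them with featureCounts 1.5.0-p3. The deposited values are raw counts of reads per gene, not normalized, in an Ensembl and a RefSeq table. Strand was not used in counting, so reads of overlapping and antisense genes cannot be told apart (22 of the 165 called genes share exon positions with another gene, 13 of them on the opposite strand), and reads of near-identical copies were left out or may be split. Each of these count tables also held 12 columns outside the 24 samples of the series, which were not used.

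Groups came from the labels. Ensembl and RefSeq genes were joined by reciprocal best exon overlap on the same strand (bedtools 2.31.1, 24792 pairs), and 27767 of 32105 Ensembl genes had a symbol. Genes whose mean count reached 10 were tested with edgeR 4.0.16 (robust quasi-likelihood F test, TMM factors, R 4.3.3) and Benjamini-Hochberg adjustment. The SE is the log2 fold change divided by the square root of F. Where no annotation is named, values are those of the Ensembl counts. CPM use TMM factors, and permutation tests used log2(CPM + 0.5). The code was tested on simulated data. The labels name no sequencing batch, and p-values measure the spread between tanks. Tanks of a group may share parents, so that spread may not cover the spread between families. Among the 66 pairs of F1 libraries, chi-square divided by its degrees of freedom was 7.48 or more, so no library was counted as a repeat. Total counts are given in the text and set the precision of low genes.

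The members and lists were chosen with earlier results of these data known. Named are the 12 higher and 12 lower called genes with the smallest Ensembl p outside the study's figures and clone names, 3 clone genes each way, the 3 extreme fold changes each way, and up to 4 called and 2 abundant members per list. Values of some list members are not reported here. Alternatives were DESeq2 1.42.0, other scaling and filters, all 24 libraries in 1 fit, 1 surrogate variable (sva 3.50.0), marker scores as covariates, thinning to the smallest total, and leaving out each library. Joining the annotations by symbol and leaving out control libraries 7 to 9 were added after seeing the data.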

Additional observations from a re-analysis of the deposited data

Results flagged for a closer look

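Among the named genes, the highest or lowest library stood far from the other 5 of its group, by Dixon's test, in 8 of 130 gene and group pairs. Chance gives about 1 in 20 such pairs. Control library 7 was the far one in 4 of the 8. It held 7.72 CPM of ddx39ab (10.2 to 12.0 in the other control libraries), 16.6 CPM of sh3bgrl (27.5 to 33.6) and 9.7 CPM of isg15 (23.4 to 35.6), and for zgc:162154 it was the control library with the 1 count, at 0.198 CPM, where the others had 0. For ddx39ab this widened the distance to the high ARA group, while for the other 3 genes it lay nearer to that group. The zgc:162154 result was fixed in advance, because 1 count among zeros always stands out in Dixon's test. High ARA library 17 had 1.07 CPM of si:ch211-194p6.10 (2.18 to 3.07 in the other high ARA libraries) and 0.981 CPM of sat2a.2 (10.3 to 21.9). High ARA library 13 had 1.02 CPM of ccdc90b (2.05 to 2.45), and control library 12 had 162 CPM of hspa9 (205 to 235).

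The high ARA difference was tested to differ between the generations, as F1 minus F0 on the log2 scale, in 6 of the named genes by the interaction term of edgeR with Benjamini-Hochberg adjustment. It was 3.17 for ccdc90b (adjusted p = 0.0222), 1.73 for cfap70 (adjusted p = 0.0196), 5.83 for zgc:162154 (adjusted p = 0.000995) and 2.76 for esr1 (adjusted p = 0.0418). It was -1.33 for sh3bgrl (adjusted p = 0.0418) and -1.56 for crlf3 (adjusted p = 0.0475).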

How the results depend on the processing

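Of 65 named called genes, 15 lost their call in none of the 24 settings that changed the fit, and no direction turned round. With the pancreas acinar score as a covariate 24 of the 65 lost their call, and with 1 surrogate variable 27 did. Those lost with the pancreas acinar score included lepr, pgls, cyb5b, phkg1a, ptges3a and cmpk2. A gene that a setting left untested was not counted as lost there. The exception was zgc:162154, counted as lost without high ARA library 16, where it was not tested in both annotations. With edgeR's own filter 159 of the 165 called genes were tested, and after thinning to the smallest total 154. The number of called genes changed with the test, the libraries and the covariates. DESeq2 called 481 genes without a prior and 475 with one (610 and 606 in the Ensembl counts, 588 and 583 in the RefSeq counts), including all 165. A fit of all 24 libraries called 270 (348 Ensembl, 345 RefSeq). Fewer were called with 1 surrogate variable (80; 104 Ensembl, 101 RefSeq), with the pancreas acinar score as a covariate (81; 102 and 102), after thinning to the smallest total (108) and, chosen after seeing the data, without control libraries 7 to 9 (47; 60 Ensembl, 54 RefSeq). Leaving out 1 library gave 65 to 231 calls in both annotations, 80 to 289 in the Ensembl and 78 to 282 in the RefSeq counts. The cause of these shifts was not tested. Counts close to 165 came from RLE size factors (170), library totals (158), no filter on low counts (177) and edgeR's own filter (159). The enterocyte score as a covariate gave 130 calls and a join by symbol 128. All 165 genes were still called with RLE size factors. With library totals 126 of the 165 were, with the enterocyte score 103 and with the join by symbol 128. The 9 named genes that lost their call with library totals had all been called lower. They were igfbp2a, npc2.1, yy1b, rpia, fmo5, slc25a17, f13b, rnf213b and sat2a.2. The call of igfbp2a was also lost without a filter on low counts, with 1 surrogate variable and with either marker score. The interaction gave 12 genes, and 13 with library totals.

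With the replicate block in the interaction model, 8 genes were called in place of 12. Library numbers are shared between generations but not between the F1 groups, and the deviations of same-numbered libraries correlated at -0.36 to 0.27, so the numbers were not taken as pairs. No paired analysis was possible because the F1 groups share no number.

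High ARA and control libraries differed in depth without overlap, and the effects of depth and group cannot be told apart. Genes near the mean count of 10, such as zgc:162154 and ccdc90b, rest on few reads. In the fit without a filter, which also took in genes below that mean count, 127 of the 177 calls were among the 165.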
